A study of Rattus norvegicus with 2 samples.

Results

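Hox genes encode homeodomain transcription factors that give cells their address along the head-to-tail axis of the embryo. The arrays held 52 transcript clusters, the units that the platform reports, whose gene symbol or one of several symbols was Hoxa, Hoxb, Hoxc or Hoxd followed by a number, out of 23188 transcript clusters in all. They were chosen by symbol alone, although earlier results of these data were known. By gene cluster they comprised 24 clusters of HoxA, 11 of HoxB, 9 of HoxC and 8 of HoxD, of which 42 carried 1 symbol and 10 were shared with another gene or locus. They covered 36 of the 39 Hox genes that the RefSeq table of the rat lists. Hoxa4, Hoxa10 and Hoxd11 had no transcript cluster under their own symbol.

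C6 is an established rat glioma line. In C6 TAZ cells tafazzin (Taz), an acyltransferase that remodels the mitochondrial lipid cardiolipin, was knocked out with the CRISPR-Cas9 system, and C6 cells of the wild-type genotype were the control. Both were grown in DMEM with a low share of fetal bovine serum and received no further treatment. The sources used here do not state whether the C6 TAZ cells go back to 1 edited clone. RNA pooled from 3 independent cultures of each genotype was hybridised to 1 Clariom S rat array, so there were 2 arrays, the spread between cultures was not measured, and no difference below carries a test or a p-value.

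Hox genes lie in 4 gene clusters on different chromosomes, and genes with the same number in different clusters, called paralogues, are the most alike. The number gives the place: gene 1 lies at the 3′ end of its cluster and, in the embryo, is switched on early and far forward, while genes 9 to 13 lie at the 5′ end and act in the trunk, tail and limbs. Polycomb proteins keep silent clusters closed, trithorax proteins keep active ones open, retinoic acid switches on genes near the 3′ end, and Pbx and Meis proteins bind DNA together with Hox proteins. Hox genes are off in the forebrain and midbrain, and HOXA genes are known to be active in a share of human gliomas.

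The sequences shown here belong to the genes that the differences turned on and to the microRNAs that sit inside the Hox clusters. Hoxa2, needed for the hindbrain and the hyoid arch, and Hoxa6, a gene of the trunk, were the genes with a transcript cluster past 2-fold. Both of those transcript clusters carry identifiers that mark them as unmapped. The 250 bases before a RefSeq start of each gene are given 5′ to 3′ on the minus strand of chromosome 4 of the GRCr8 assembly. They lie at chr4:82595693-82595942 for Hoxa2 and chr4:82639464-82639713 for Hoxa6. The capitals mark TAAT, the core that homeodomains bind, and TGATNNAT, a composite site of Pbx and Hox, on either strand.
Hoxa2: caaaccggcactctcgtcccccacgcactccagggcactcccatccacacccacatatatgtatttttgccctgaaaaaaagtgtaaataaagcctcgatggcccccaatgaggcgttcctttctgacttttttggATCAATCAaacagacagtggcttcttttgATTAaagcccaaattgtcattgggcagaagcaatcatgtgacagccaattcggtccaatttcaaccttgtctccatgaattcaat
Hoxa6: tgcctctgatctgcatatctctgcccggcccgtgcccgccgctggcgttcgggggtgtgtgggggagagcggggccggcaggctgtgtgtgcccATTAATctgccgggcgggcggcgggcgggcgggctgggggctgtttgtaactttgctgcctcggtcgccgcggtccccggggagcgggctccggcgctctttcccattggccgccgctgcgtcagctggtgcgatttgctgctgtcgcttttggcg

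The Hoxa2 sequence held 1 TAAT and 1 TGATNNAT, which do not overlap, and the Hoxa6 sequence held 2 overlapping TAAT and no TGATNNAT. Of all 33469 promoters in the RefSeq table, 57.0% held a TAAT in the same 250 bases and 7.96% a TGATNNAT on either strand. Base composition differed between both. Hoxa6 had 70.8% G and C with 28 CpG dinucleotides, and Hoxa2 had 45.2% with 6, the lowest G and C content among the 21 promoters of 20 Hox genes in the table. The median over these 21 was 60.0% G and C with a CpG ratio of observed over expected of 0.86, against 51.2% and 0.38 over all promoters. CCAAT was found in 57.1% of these Hox promoters and in 34.0% of all promoters, and TATAAA in 19.0% and 12.9%. Of the 21, 10 were of HoxA and 9 of HoxD, and the others were those of Hoxb1 and Hoxc4. These shares thus say little about HoxB and HoxC.

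Mir10a and Mir10b lie inside HoxB and HoxD, and 1 of the transcript clusters is annotated to Hoxd4 and Mir10b together. Their mature 5′ arms from RefSeq are given with the seed, bases 2 to 8, in capitals.
rno-miR-10a-5p: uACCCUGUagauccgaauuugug
rno-miR-10b-5p: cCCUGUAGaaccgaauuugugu
As annotated in the rat, the miR-10b arm starts 2 bases further in than the miR-10a arm, so the bases 2 to 8 of both differ although the sequences run in parallel. The signal of the Hoxd4 and Mir10b transcript cluster is not a level of a mature microRNA.

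The deposited values are log2 signals of 1 array each. A signal depends on the probes of its transcript cluster as well as on the amount of RNA, so signals of different genes are set out below in bands and are not ranked as amounts of transcript. As a guide to what a gene that should be off looks like on these arrays, 1506 transcript clusters of olfactory and vomeronasal receptors, sensory genes of the nose, had a median of 4.48 in the C6 TAZ array and 4.49 in the C6 array, with 95th percentiles of 5.97 and 5.86.

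HoxA was the gene cluster with signals above this range. A signal of 6 or more (log2) in either array was found for 17 of 24 HoxA transcript clusters (70.8%), 1 of 11 in HoxB, 1 of 9 in HoxC and 0 of 8 in HoxD. Together, HoxB, HoxC and HoxD thus had 2 of 28 (7.14%), close to the 6.04% of the receptor clusters, while 55.3% of all transcript clusters reached this signal. Counted by gene, all 9 HoxA genes with a transcript cluster had one at this signal, against 1 of 10 HoxB genes, 1 of 9 HoxC genes and none of 8 HoxD genes. The 8 transcript clusters at 8 or more in both arrays were all of HoxA. HoxA also had 7 of 24 transcript clusters below 6 in both arrays, so that its high signals did not extend over all its annotated members.

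**Figure D1:**
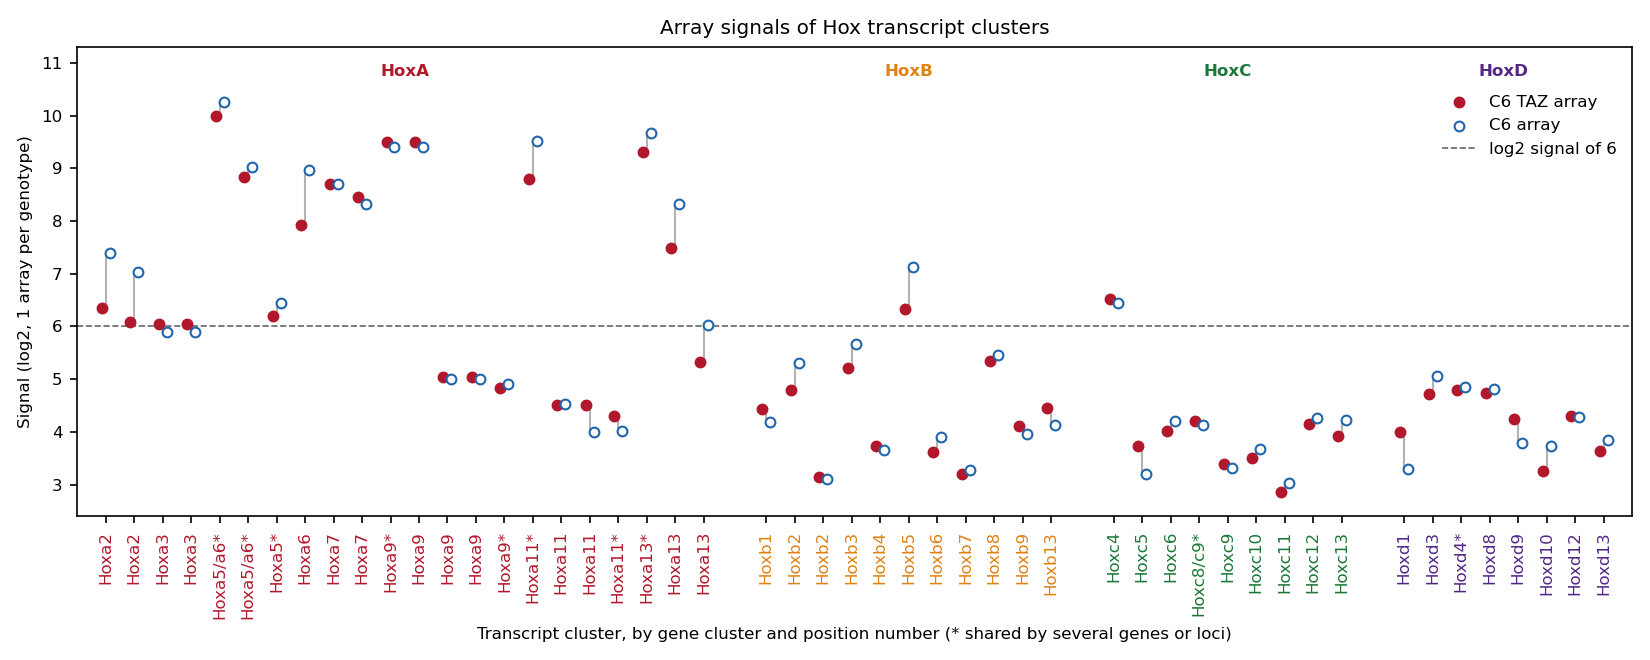
Log2 signals of Hox transcript clusters in the C6 TAZ array (filled red) and the C6 array (open blue), ordered by gene cluster and position number; a star marks transcript clusters shared by several genes or loci, and there is 1 array per genotype with no error bar. HoxA reaches 10.00 in the C6 TAZ array and 10.26 in the C6 array, while Hoxb5 and Hoxc4 are the only transcript clusters of the other gene clusters above 6.

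The pattern was the same in both genotypes. A signal of 6 or more was found for 18 Hox transcript clusters in the C6 TAZ array and 17 in the C6 array, and 16 of these reached it in both. The median log2 signal of HoxA was 6.24 in the C6 TAZ array and 6.74 in the C6 array. For HoxB it was 4.43 and 4.14, for HoxC 3.92 and 4.14, and for HoxD 4.28 and 4.06, again C6 TAZ array before C6 array. All 3 pairs of medians lay below those of the receptors, and the HoxA medians lay above them.

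Within HoxA, 5 of the 6 transcript clusters at the 3′ end reached 6. All 6 for Hoxa5, Hoxa6 and Hoxa7 reached it, with a range of 6.20 to 10.00 in the C6 TAZ array and 6.44 to 10.26 in the C6 array. Of the 12 for Hoxa9, Hoxa11 and Hoxa13, 6 reached 6, and they ranged between 4.31 and 9.49 in the C6 TAZ array and between 3.99 and 9.67 in the C6 array.

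Between the genotypes, 22 of the Hox transcript clusters were higher in C6 TAZ, 29 were lower and 1 was equal. Over the 52, C6 TAZ minus C6 had a median of −0.07 in log2, against 0.00 over all transcript clusters, and the differences had an SD of 0.39 among the Hox transcript clusters and 0.49 among all. By gene cluster the medians were −0.04 for HoxA, −0.06 for HoxB, −0.12 for HoxC and −0.08 for HoxD. In pooled RNA of whole cultures a lower signal does not tell fewer cells with a transcript apart from less transcript per cell.

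At 2-fold or more, 0 of the Hox transcript clusters were higher in C6 TAZ, against a background of 2.34% of all transcript clusters, and 2 were lower (3.85%), against 2.1%. At 1.5-fold or more, 1 was higher, against 9.87%, and 7 were lower (13.5%), against 9.05%. The 7 were Hoxa2 with 2 transcript clusters, Hoxa6, Hoxa11 with 1 shared transcript cluster, Hoxa13 with 2 and Hoxb5, and the 1 that was higher was Hoxd1. A share of 2 in 52 is close to its background, and the counts are too small to set the Hox genes apart from the array at large.

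**Figure D2:**
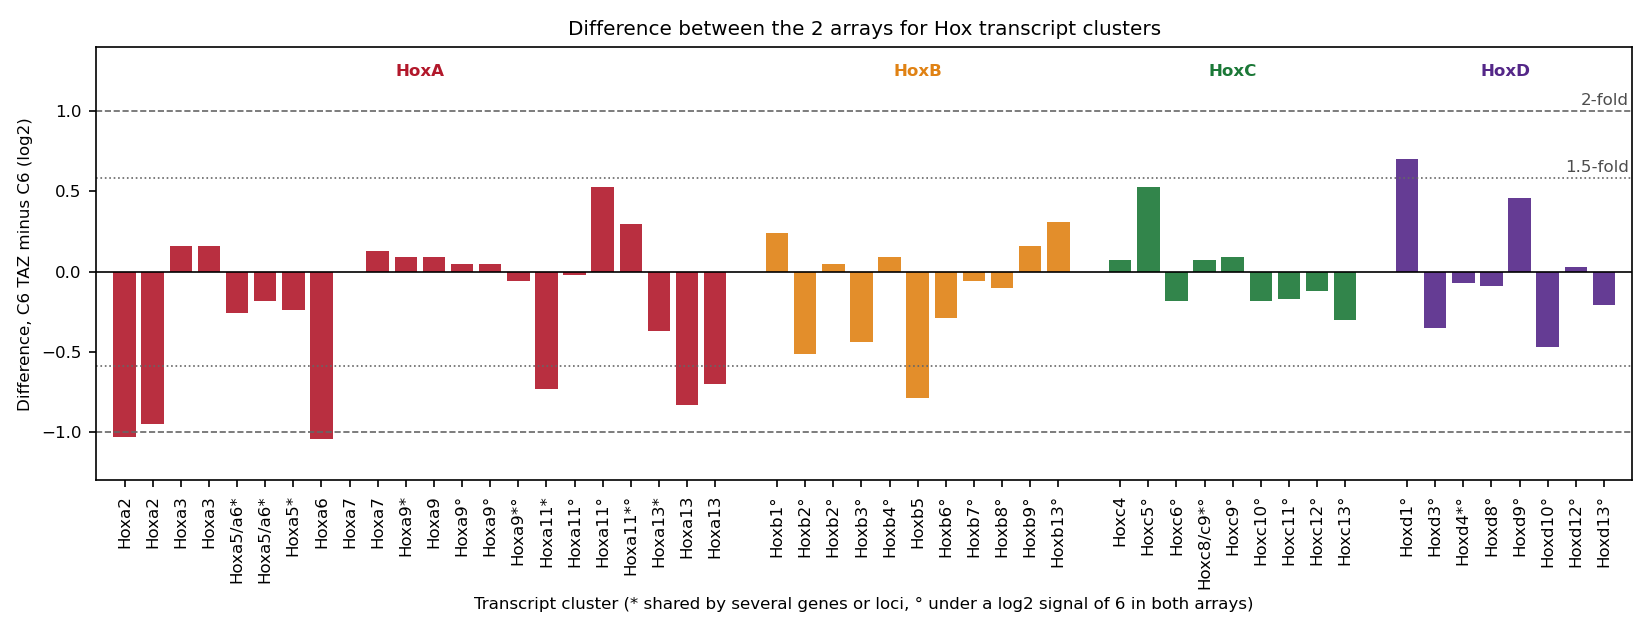
Log2 difference of C6 TAZ minus C6 for the same Hox transcript clusters, in the order of the plot of signals; dashed lines mark 2-fold and dotted lines 1.5-fold, and a degree sign marks those that stayed under 6 (log2) on both arrays. Hoxa2 at −1.03 and Hoxa6 at −1.04 pass the lower 2-fold line, and Hoxd1 at 0.70 is the highest bar.

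Hoxa2, at the 3′ end of HoxA, patterns the hindbrain and the neural crest of the hyoid arch. Its first transcript cluster had a signal of 6.36 (log2) in the C6 TAZ array and 7.39 in the C6 array, a difference of −1.03 or 2.04-fold lower in C6 TAZ. Its second had 6.08 in the C6 TAZ array and 7.03 in the C6 array, a difference of −0.95 or 1.93-fold lower. Both transcript clusters of this gene thus gave nearly the same difference, and in the C6 TAZ array both lay just above the receptors' 95th percentile of 5.97. The identifier of the first marks it as unmapped, and that of the second names a chromosome.

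The genes next to it in the 5′ direction differed less. Hoxa3, needed for the thymus and parathyroid, had 6.05 in the C6 TAZ array and 5.89 in the C6 array, a difference of 0.16, and a second transcript cluster listed under Hoxa3 held identical values. Hoxa4 appeared only through a locus identifier beside Hoxa5, with a shared log2 signal of 6.20 in the C6 TAZ array and 6.44 in the C6 array, a difference of −0.24.

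Hoxa6 was measured alone on 1 transcript cluster, with a signal of 7.93 in the C6 TAZ array and 8.97 in the C6 array, a difference of −1.04 or 2.06-fold lower in C6 TAZ. The identifier marks this transcript cluster as unmapped. Transcript clusters that Hoxa6 shares with Hoxa5, a gene of the neck, lung and diaphragm, have identifiers that name a chromosome and differed far less. The first, which also carries 2 loci, had 10.00 in the C6 TAZ array and 10.26 in the C6 array, a difference of −0.26, and was the brightest Hox transcript cluster. The second had 8.84 in the C6 TAZ array and 9.02 in the C6 array, a difference of −0.18. All 3 were lower in C6 TAZ, but the difference seen for Hoxa6 alone was not seen on the shared ones, and which of the genes the shared probes follow cannot be told apart.

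Hoxa7, the next gene in the 5′ direction, had log2 signals of 8.71 in the C6 TAZ array and 8.71 in the C6 array on 1 transcript cluster, a difference of 0.00, and of 8.46 and 8.33 on the other, a difference of 0.13. Hoxa9, which is highly expressed in many leukaemias, was represented 5 times. Of these, 2 held the same values, 9.49 in the C6 TAZ array and 9.40 in the C6 array, a difference of 0.09. One of this pair is shared with the locus LOC100909678, and the other is described as the protein Hox-A7 in the annotation, while RefSeq lists Hoxa9 among the older symbols of Hoxa7. The other 3 lay in the range of the receptors, with 5.05 in the C6 TAZ array and 5.00 in the C6 array on 2 of them and 4.84 and 4.90 on the one shared with LOC100909740. The annotation does not settle which gene the bright pair reports.

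Hoxa11 and Hoxa13, at the 5′ end, pattern the forearm, the uterus, the hand and the genital tract. The bright transcript cluster of Hoxa11, shared with LOC100909714, had 8.79 in the C6 TAZ array and 9.52 in the C6 array, a difference of −0.73 or 1.66-fold lower. Its other transcript clusters were dim. Those of Hoxa11 alone had 4.51 in the C6 TAZ array and 4.53 in the C6 array, and 4.52 and 3.99, and the one shared with 2 further loci had 4.31 and 4.01, with differences of −0.02, 0.53 and 0.30. RefSeq gives Hoxa11 as an older name of Hoxa2, and Hoxa10 as an older name of Hoxa11, so symbols in this region of the annotation need care.

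Hoxa13 was lower in the C6 TAZ array on all 3 of its transcript clusters. The brightest, shared with LOC100910298, had 9.30 in the C6 TAZ array and 9.67 in the C6 array, a difference of −0.37. The next had 7.49 in the C6 TAZ array and 8.32 in the C6 array, a difference of −0.83 or 1.78-fold lower, and the last had 5.32 and 6.02, a difference of −0.70 or 1.62-fold lower. A transcript cluster outside the set, named only by 2 locus identifiers of which RefSeq assigns one to Hoxa10, had 6.98 in the C6 TAZ array and 7.48 in the C6 array, a difference of −0.50.

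Among the 19 Hox transcript clusters that reached 6 in either array, 11 were lower in C6 TAZ, 7 higher and 1 equal, with a median difference of −0.24. All 7 that were lower by 1.5-fold or more belonged to these 19 (36.8%), against 9.91% of the 12824 transcript clusters of the array at this signal. A requirement on the higher of 2 signals favours transcript clusters that differ, so these shares describe the measured values and give no test of the Hox genes. Some of the 19 also read the same gene or hold the same values. With equal pairs of values counted once, HoxA had a median difference of −0.18 in place of −0.04, and over its 16 transcript clusters of 1 symbol the median was 0.03, with 8 higher, 7 lower and 1 equal.

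**Figure D3:**
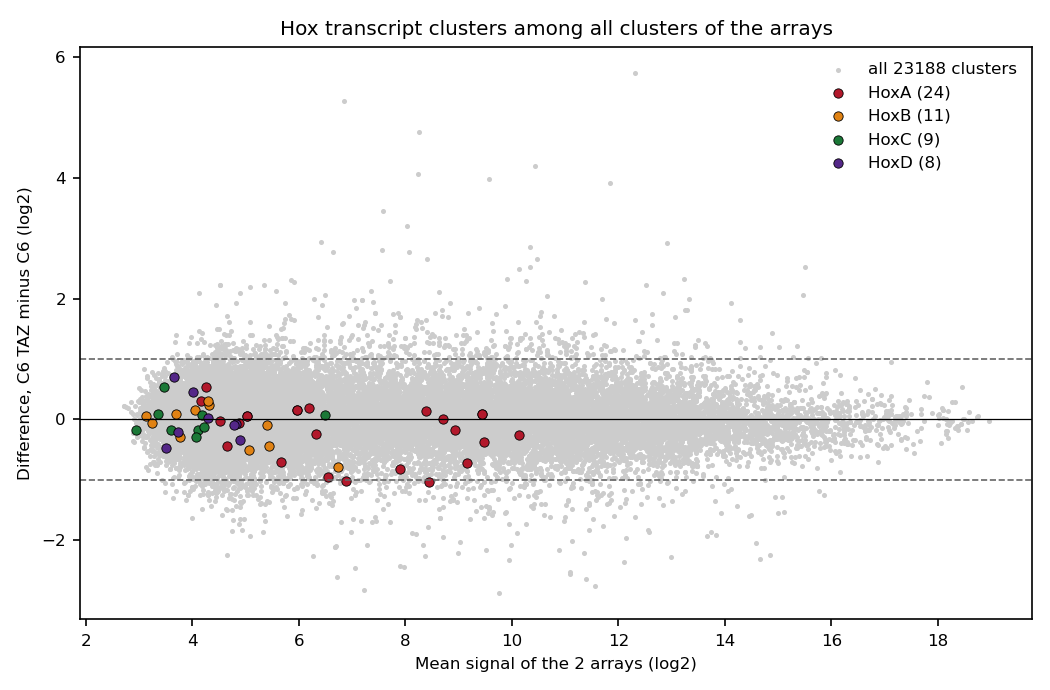
Log2 difference of C6 TAZ minus C6 (vertical axis) against the mean log2 signal of both arrays (horizontal axis) for all 23188 transcript clusters (grey) and the Hox transcript clusters (coloured by gene cluster); dashed lines mark 2-fold. The Hox points lie within the grey cloud, those of HoxB, HoxC and HoxD mostly at its dim end, and Hoxa2 and Hoxa6 on its lower side at −1.03 and −1.04.

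In HoxB, Hoxb5, which acts in the lung, gut nerve cells and trunk, was the one bright member. It had a signal of 6.33 in the C6 TAZ array and 7.12 in the C6 array, a difference of −0.79 or 1.73-fold lower in C6 TAZ. The next in signal were Hoxb8, with a known role in microglia and the spinal cord of the mouse, with 5.35 in the C6 TAZ array and 5.45 in the C6 array, and Hoxb3, a hindbrain gene, with 5.22 and 5.66. The remaining 8 had log2 signals of 3.15 to 4.80 in the C6 TAZ array and 3.10 to 5.31 in the C6 array. All 4 transcript clusters of Hoxb5 to Hoxb8 were lower in the C6 TAZ array, but apart from Hoxb5 by no more than 0.29.

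In HoxC, Hoxc4, at the 3′ end of its cluster, was the one member above 6, with 6.52 in the C6 TAZ array and 6.45 in the C6 array, a difference of 0.07. Hoxc12 followed with 4.15 and 4.27, and the transcript cluster shared by Hoxc8 and Hoxc9 with 4.21 and 4.14. The largest difference in HoxC was that of Hoxc5, 3.73 in the C6 TAZ array and 3.20 in the C6 array, a difference of 0.53 at signals below the median of the receptors.

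In HoxD no transcript cluster reached 6, and the highest was 4.79 in the C6 TAZ array and 5.07 in the C6 array. Hoxd3 had 4.72 in the C6 TAZ array and 5.07 in the C6 array, the transcript cluster of Hoxd4 and Mir10b had 4.79 and 4.86, and Hoxd8 had 4.73 and 4.82. Hoxd1, at the 3′ end, had 4.0 in the C6 TAZ array and 3.30 in the C6 array, a difference of 0.70 or 1.62-fold higher in C6 TAZ, with both signals below the receptors' median. Differences of this size were common among transcript clusters with no expected transcript. The receptor clusters' differences had an SD of 0.48, and their central 95% ran between −0.95 and 0.97. The lower differences of Hoxa11 (−0.73), Hoxa13 (−0.83 and −0.70) and Hoxb5 (−0.79) lay inside this range too. That of −0.95 for Hoxa2 lay at its edge, and −1.03 for Hoxa2 and −1.04 for Hoxa6 lay outside. Of the 1506 receptor clusters, 31 (2.06%) were themselves lower by 2-fold or more, so a place outside the range does not set a transcript cluster apart. Most receptor clusters were dimmer than these Hox transcript clusters, with 6.04% at 6 or more in either array.

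Genes that border the Hox clusters were read beside them, in the gene order of the RefSeq table. Of 23 names listed, 21 had a value; Prac1 and Kiaa1715, an older name of Lnpk, had none. Their median difference was 0.05. Next to the dark HoxD cluster, Mtx2, a gene of mitochondrial protein import beyond Hoxd1, had 11.66 in the C6 TAZ array and 11.65 in the C6 array, and Lnpk, an endoplasmic reticulum gene beyond Hoxd13, had 11.21 and 11.11. The even-skipped relatives Evx1 and Evx2, which adjoin gene 13 of HoxA and HoxD, had 5.03 and 5.29 in the C6 TAZ array and 4.81 and 4.86 in the C6 array. Next to HoxA, Skap2 had 9.14 in the C6 TAZ array and 9.42 in the C6 array, and Hibadh, an enzyme of valine breakdown, had 13.07 and 13.13. Mtx2 and Lnpk, on either side of HoxD, were bright, while the adjoining Evx2 and the transcript clusters of HoxD itself were below 6.

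Calcoco1, beyond Hoxc13, was the one neighbour past 2-fold, a size that 2.34% of all transcript clusters reached in the higher direction. It had 11.06 in the C6 TAZ array and 9.68 in the C6 array, a difference of 1.39. The differences of its 2 transcript clusters lay within 0.06 of each other. Chn1 on the HoxD side had 8.70 in the C6 TAZ array and 9.45 in the C6 array (−0.75), Snx10 on the HoxA side 13.07 and 13.81 (−0.74), and Snx11 on the HoxB side 9.81 and 9.41 (0.40).

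Pbx, Meis and Pknox proteins, which bind DNA with Hox proteins, were mostly bright, with 8 of 9 at 6 or more in log2. Their median difference was 0.02. None passed 2-fold, against 2.34% higher and 2.1% lower of all transcript clusters, and a list this small cannot be set apart from that. Meis3 had 7.26 in the C6 TAZ array and 7.84 in the C6 array, a difference of −0.58. Pbx4 had 6.08 in the C6 TAZ array and 5.68 in the C6 array (0.40), and Pbx3 had 12.04 and 11.70 (0.34).

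Of 25 Polycomb genes 24 had a transcript cluster, all at 6 or more, with a median difference of 0.21. None was higher by 2-fold and 1 was lower, and at 1.5-fold 4 were higher and 3 lower. Of all transcript clusters, 2.34% were higher and 2.1% lower at 2-fold, and 9.87% and 9.05% at 1.5-fold. The counts are too small to set the list apart from the array at large. The gene lower by 2-fold was Ring1, a ubiquitin ligase of Polycomb repressive complex 1. It had 7.69 in the C6 TAZ array and 9.03 in the C6 array, a difference of −1.34. Cbx7, a reader of the Polycomb mark, had 7.42 in the C6 TAZ array and 6.65 in the C6 array (0.77), Jarid2, an accessory protein of the methylating complex, had 8.91 and 8.15 (0.76), and Phf19 had 6.50 and 7.24 (−0.74). Ezh2 and Ezh1, alternative methyltransferases of that complex, differed in opposite directions, with 10.97 in the C6 TAZ array and 11.69 in the C6 array for Ezh2, and 11.63 and 10.99 for Ezh1.

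All 15 trithorax and demethylase genes had a value, with a median difference of 0.05. None passed 2-fold, against 2.34% higher and 2.1% lower of all transcript clusters. At 1.5-fold 3 were higher and 1 lower, against 9.87% and 9.05%. These counts are too small to set the list apart from the array at large. Kdm6b, a demethylase that removes the Polycomb mark, had 12.14 in the C6 TAZ array and 11.15 in the C6 array, a difference of 0.99, just under 2-fold. Kmt2c, a methyltransferase, had 12.14 and 11.36 (0.77), Ash1l 11.04 and 10.42 (0.62), and Ash2l, a core subunit of the methyltransferase complexes, 10.74 and 11.41 (−0.67).

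**Figure D4:**
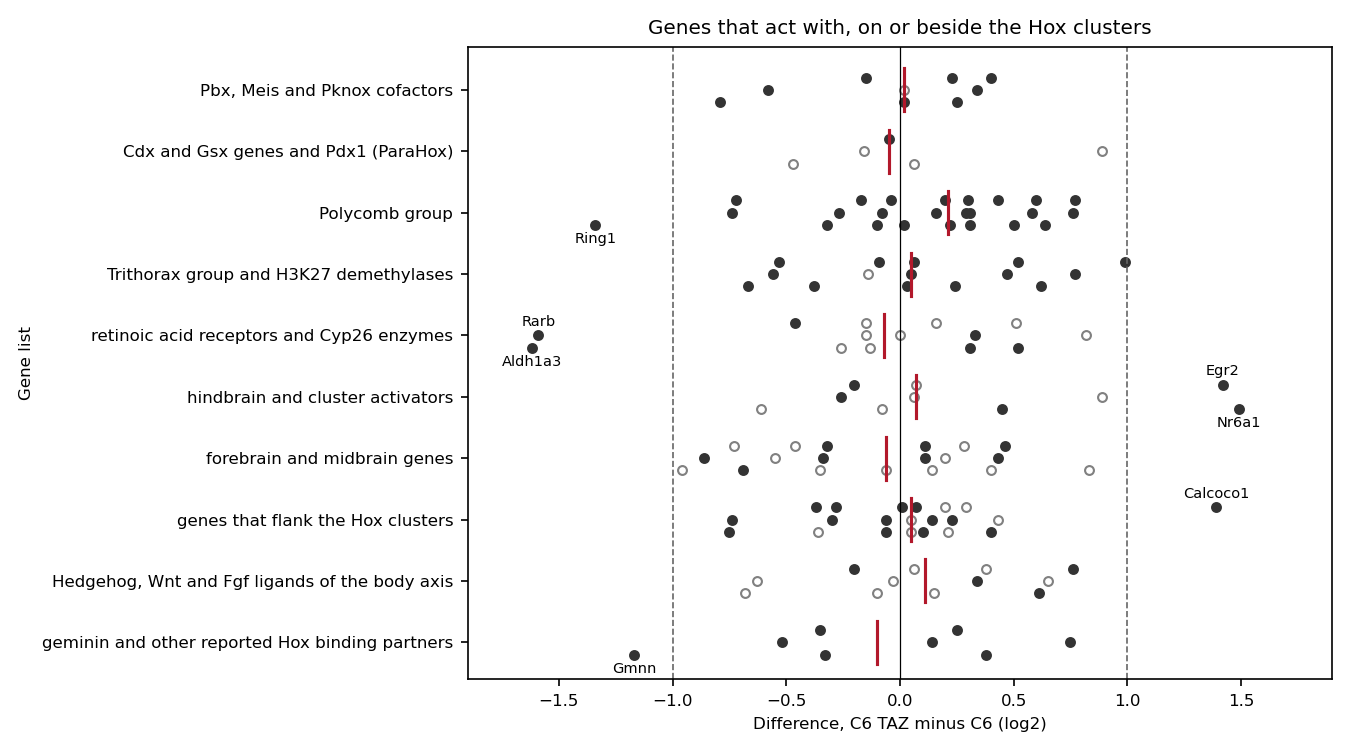
Log2 difference of C6 TAZ minus C6 for each gene of 10 lists of genes that act with, on or beside the Hox clusters; filled points reached 6 (log2) in either array, open points did not, red bars mark the list medians and dashed lines 2-fold. Medians lie between −0.10 and 0.21, and the named points are the genes past 2-fold.

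Of the 10 lists, that of retinoic acid held the largest differences in the lower direction. Aldh1a3, which makes retinoic acid, had a signal of 11.51 in the C6 TAZ array and 13.13 in the C6 array, a difference of −1.62. Rarb, a retinoic acid receptor whose gene is itself induced by retinoic acid, was read from a transcript cluster shared with another locus, with 8.84 in the C6 TAZ array and 10.43 in the C6 array, a difference of −1.59. Rara had 10.42 and 9.90 (0.52) and Rarg 12.43 and 12.89 (−0.46). Over all 14 genes the median was −0.07. Past 2-fold, 0 were higher and 2 lower, against 2.34% and 2.1% of all transcript clusters.

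Among 11 regulators of the hindbrain and of Hox clusters, 10 had a value, and the median was 0.07. Past 2-fold, 2 were higher and 0 lower, against 2.34% and 2.1% of all transcript clusters. Nr6a1, an orphan nuclear receptor that sets trunk length in the mouse, had 8.95 in the C6 TAZ array and 7.46 in the C6 array, a difference of 1.49. Egr2, which activates Hoxa2 and Hoxb2 in the hindbrain of the mouse and is also a factor of myelinating Schwann cells, had 12.27 and 10.85, a difference of 1.42. Hoxa2 was lower in C6 TAZ. Hoxb2 had 4.80 in the C6 TAZ array and 5.31 in the C6 array on 1 transcript cluster and 3.15 and 3.10 on the other. A link of the Hoxa2 and Hoxb2 values to Egr2 was not tested. Zfp703, listed as Znf703, had 7.17 in the C6 TAZ array and 6.72 in the C6 array (0.45), and the insulator protein Ctcf 11.73 and 11.99 (−0.26).

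Among 8 reported binding partners of Hox proteins the median was −0.10. Against 2.1% of all transcript clusters, 1 was lower past 2-fold. This was geminin (Gmnn), an inhibitor of DNA replication licensing that binds Hox proteins, with 9.03 in the C6 TAZ array and 10.20 in the C6 array, a difference of −1.17. The acetyltransferase Ep300 had 10.74 in the C6 TAZ array and 9.99 in the C6 array (0.75), the deacetylase Hdac1 13.20 and 13.72 (−0.52), and Smad4 14.29 and 13.91 (0.38).

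The probes of Taz had 9.84 in the C6 TAZ array and 10.34 in the C6 array, a difference of −0.50 or 1.41-fold lower, and a probe outside the edited part of the gene checks nothing about the genotype. Of 12 glial and glioma markers, 9 reached 6, led by Vim with 18.77 in the C6 TAZ array and 18.72 in the C6 array, while Olig1, Fabp7 and Slc1a3 lay below 6 in both. Markers of microglia and macrophages lay between 3.44 and 5.43 in the C6 TAZ array and between 3.66 and 6.15 in the C6 array. Of 8 neuronal markers 4 reached 6, led by Map2 with 13.30 in the C6 TAZ array and 13.39 in the C6 array, with differences between −0.37 and 0.44. Of 5 endothelial markers 2 reached 6. The differences of the 5 ran between −1.47 for Tek, with 5.58 in the C6 TAZ array and 7.05 in the C6 array, and 0.15 for Pecam1, with 4.4 and 4.25. Of 6 fibroblast markers 4 reached 6, at up to 14.61 in the C6 TAZ array and 14.76 in the C6 array. The differences of the 6 ran between −0.21 for Col1a2, with 5.80 and 6.01, and 1.23 for Col3a1, with 9.24 in the C6 TAZ array and 8.01 in the C6 array. The part of all these markers in the Hox values was not tested.

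Every direction rests on the column names of the workbook. Another deposited table lists these values by sample, with the names exchanged for 100% of transcript clusters, and under its names each of these differences changes its sign, so that Hoxa2 and Hoxa6 would be higher in C6 TAZ. The workbook was followed because its names match those that the paper prints beside signals of other genes.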

How the data were processed

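Total RNA pooled from 3 cultures per genotype was labelled and hybridised to 1 Clariom S rat array each. The log2 signals of transcript clusters were deposited by the authors with 2 decimals, made with Affymetrix Expression Console and annotated on rn6; the method of summarization and normalization was not given in the sources used here. A fold change column of the workbook was not used. Differences are C6 TAZ minus C6 in log2, counted as past a fold at 2-fold or 1.5-fold or more, with a band at a log2 signal of 6. With 1 array per genotype no test was possible, and the number of arrays limits the precision. The counting was tested on simulated data.

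The Hox members and the gene lists were chosen with earlier results of these data known. Values are printed for each Hox transcript cluster past 1.5-fold, the 3 brightest and the farthest bright one of each gene cluster, the shared ones and, in each list, up to 4 bright genes with the largest difference, and other named genes were chosen after their values were seen. A few of these genes are not reported here or named in the plots. A gene was read from transcript clusters of its symbol alone, or else from a shared one, and several were averaged in the lists. Names, gene order, promoters and microRNAs came from RefSeq tables of GRCr8, a build other than that of the array. Homeodomain sequences, planned at first, are not used here. Alternatives were centring on the median of all transcript clusters, quantile normalization, a minimum signal, the receptors' 95th percentile, transcript clusters of 1 symbol, 1 value per gene, 1.5-fold, the mean in place of the median, other names of the columns and equal values counted once. Python 3.11.15, pandas 2.3.3 and numpy 2.4.6 were used.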

Additional observations from a re-analysis of the deposited data

How the results depend on the processing

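No paired analysis was possible because each genotype has 1 array. Of 83 alternative values, 66 stayed within 0.1 in log2 or 1.5 times in count. With signals of 6 or more in either array, the median difference was −0.24 for all Hox transcript clusters and −0.24 for HoxA, and the single transcript clusters left were at −0.79 in HoxB and 0.07 in HoxC, with none in HoxD. With 1 value per gene, 1 was lower past 2-fold, since both transcript clusters of Hoxa2 average −0.99, and 9 had a signal of at least 6, out of 36 genes in place of 52 transcript clusters. At 1.5-fold the counts were 1 higher and 7 lower, and 10 reached a signal of 8 in one array. The HoxA median was −0.18 with equal values counted once, an alternative chosen after seeing the data, its mean was −0.21, and over transcript clusters of 1 symbol its median was 0.03. With the column names of the per-sample values, 2 were higher and 0 lower past 2-fold, and all medians turned their sign, to 0.07 for Hox, 0.04 for HoxA, 0.06 for HoxB, 0.12 for HoxC and 0.08 for HoxD. The other sign changes among the Hox medians were those of HoxC at 0.07 and of HoxA at 0.03 given above. Centring and quantile normalization moved no Hox difference by more than 0.06, and flipped only the sign of Hoxa7 at 0.00.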

Other observations

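Genes that mark the front of the embryo, where Hox genes are normally off, were read as well. Of 19 genes of the forebrain and midbrain, 8 reached 6 in log2 in either array, against 55.3% of all transcript clusters. None passed 2-fold in either direction, against 2.34% higher and 2.1% lower of all transcript clusters, and the list is too small to be set apart from that. Lhx2, a selector gene of the cortex and eye, had 11.04 in the C6 TAZ array and 10.58 in the C6 array, and Otx1 had 9.91 and 10.25. Genes of the forebrain address and bright HoxA genes were thus present in the same RNA pools. At the other end of the list, Otx2, Six3 and En2 lay between 3.09 and 3.90 in the C6 TAZ array and between 3.15 and 4.45 in the C6 array. The largest differences at 6 or more were those of Nkx2-1, with 5.16 in the C6 TAZ array and 6.02 in the C6 array (−0.86), and of Dlx2, with 6.81 and 7.50 (−0.69).

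The ParaHox genes, sisters of the Hox clusters, were dim: Pdx1 of the pancreas had 6.22 in the C6 TAZ array and 6.27 in the C6 array, and the other 4 measured ones lay below a log2 signal of 6. Of 12 genes for ligands and factors of the body axis, 4 reached it, against 55.3% of all transcript clusters, and the median difference was 0.11. None passed 2-fold, against 2.34% higher and 2.1% lower of all transcript clusters. Fgf4 had 6.20 in the C6 TAZ array and 5.44 in the C6 array (0.76), and Fgf17 had 7.43 and 6.82 (0.61).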
